A study of Caenorhabditis elegans with 2 samples.

Results

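The genes mex-1, mex-3, mex-5, mex-6, pie-1, pos-1, oma-1 and oma-2, which encode maternal RNA-binding proteins of the early worm embryo, were examined in ChIP-seq peak lists of F13H6.1, the protein encoded by bcl-11 of Caenorhabditis elegans. They are 8 of the 19985 protein-coding genes of the annotation. The genes were listed by name and chosen from earlier results of the same lists, in which the strong site beside mex-1 was already known. The presence, signal and rank of regions at these genes are therefore given as a description, with no test. ChIP-seq enriches the DNA that a protein occupies and reports the enriched places as regions, each with a summit and a signal. F13H6.1 was fused at its C-terminal end to GFP and FLAG in the transgenic strain OP471 (hermaphrodites, genotype unc-119(tm4063) III; wgIs471), and an anti-GFP antibody was used for the precipitation. Whole late embryos were taken 5 hours after synchronization by egg bleaching, in 2 biological replicates of 1 group, so no conditions could be compared. Whole embryos mix all cell types, the promoter that drives the transgene is not given in the sources used here, and the lists hold no measure of expression with which to check the tissue.

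The authors' pooled list held 21824 regions called permissively, of which the thresholded list kept 1065 by the irreproducible discovery rate. That rate measures how well ranks hold between sets of calls. Which sets fixed the threshold was not examined here. The kept regions, called sites here, were the 1065 of highest signal in the pooled list. Replicate 1 had 19517 permissively called regions and replicate 2 had 21972. The scale of the signal is not stated, so signals are compared by rank within a list, with rank 1 the highest. A region was assigned to a gene when its summit lay between 2000 bp upstream of the gene and the gene's end. Control libraries were not analysed here, and whether any of these regions marks binding of the protein was not tested.

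The products of these genes act largely after transcription. Their mRNAs are laid down in the oocyte, and most of the proteins bind the 3' UTRs of other maternal mRNAs and set in which early blastomeres those mRNAs are translated or kept stable. MEX-1, MEX-5, MEX-6, PIE-1, POS-1, OMA-1 and OMA-2 have CCCH zinc fingers, in which cysteines and a histidine hold a zinc ion, whereas MEX-3 binds RNA through KH domains. A search of the translated coding sequences for the CCCH spacing (7 to 10, 5 and 3 residues between the zinc ligands) found 2 fingers in each of the 7 zinc finger proteins and 0 in MEX-3. OMA-1 and OMA-2 act in the maturing oocyte, MEX-5 and MEX-6 set up the difference between anterior and posterior cytoplasm in the zygote, and MEX-1, POS-1 and PIE-1 act in the posterior germline blastomeres.

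A strong and a weak upstream region are shown for their contrast, each as 201 bases of the plus strand centred on the summit. The first is the site beside mex-1, II, 11967623 to 11967823, and lies wholly between genes. The second is the only pooled region of mex-5, IV, 13352350 to 13352550, the weakest of the highest regions of the 6 genes that had one, and it lies inside the neighbouring gene rec-8. Both were read from the RefSeq WBcel235 genome, and capitals mark the central 51 bases.
mex-1 site: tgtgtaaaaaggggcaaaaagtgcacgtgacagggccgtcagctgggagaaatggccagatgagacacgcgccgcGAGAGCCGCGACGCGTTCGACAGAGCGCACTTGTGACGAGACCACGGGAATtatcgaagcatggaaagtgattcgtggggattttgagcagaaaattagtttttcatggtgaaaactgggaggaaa
mex-5 region: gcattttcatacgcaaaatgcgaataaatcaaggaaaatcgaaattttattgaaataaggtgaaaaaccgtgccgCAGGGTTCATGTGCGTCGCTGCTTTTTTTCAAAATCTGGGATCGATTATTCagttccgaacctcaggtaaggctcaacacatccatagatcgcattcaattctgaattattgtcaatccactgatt

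The capitals of the mex-1 site were 62.7% G and C, and those of the mex-5 region 43.1%. The median of the same 51 bases was 52.9% over the 1065 sites and 43.1% over the 20759 pooled regions that are not sites. The mex-1 site was therefore richer in G and C at its centre than the typical site, while the mex-5 region matched the typical region below the threshold. Over the full 201 bases the mex-1 site held 51.7% G and C, above the value of 70.1% of sites.

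The site beside mex-1 was among the strongest of the whole series. MEX-1 is needed to keep PIE-1 and germ granules in the germline blastomeres, and embryos without it make excess muscle. The site ran from 11967574 to 11967878 on chromosome II of ce11 (WBcel235), a width of 305 bp, with its summit at 11967723. Its signal was 364.3, which ranked 22 of 1065 sites and 22 of 21824 pooled regions. In replicate 1 the region there had a signal of 185.0 and ranked 20 of 19517, with its summit 9 bp to the left of the pooled summit. In replicate 2 it had a signal of 175.4 and ranked 26 of 21972, with its summit at the same base as the pooled one. Both replicates thus placed the region at nearly the same base and in nearly the same rank. Most regions had 1 fixed width, 456 bp in the pooled list, and the mex-1 site belonged to the 15% of sites that were narrower than that, against 0.756% of all pooled regions.

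The position of the mex-1 site did not single out mex-1. The gene runs on the plus strand from 11968637 to 11972330, and the summit lay 914 bp upstream of its first transcript start. On the other side W03C9.5, on the minus strand, starts 179 bp from the summit. The spacer between these divergent genes is 1092 bp long, and the summit stood in the part next to W03C9.5. A further gene, rab-7, which encodes a small GTPase of late endosomes, starts 792 bp from the summit, inside W03C9.5, which it overlaps. The summit fell in the windows of these 3 coding genes and of no noncoding gene. Spacers between divergent coding genes held 37% of sites and 15.1% of the other pooled regions, so the mex-1 site lay in a common setting for a site. Within 10 kb of it there was 1 further site, with rank 6 and a signal of 475.7, 6886 bp to the left. The highest other pooled region in that stretch ranked 1611.

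The window of mex-1 held 2 further pooled regions, both far below the threshold. The nearer one had its summit at 11967924, 713 bp upstream of mex-1 and 380 bp from the start of W03C9.5. It overlapped the site itself. Its signal was 34.36 and its rank 8335. Replicate 1 had a region with its summit within 100 bp of it, ranked 9676, and replicate 2 had none. The other lay in an intron of mex-1, with its summit at 11971306, 930 bp past the start of a shorter transcript, a signal of 29.66 and rank 11993. Replicate 1 had a region with its summit at the same base, ranked 9082, and replicate 2 had none. Replicate 2 alone had a region in a coding exon, 691 bp past the first start, ranked 14023. Agreement between the replicates at mex-1 therefore concerned the upstream site, and the weak regions were each found in 1 replicate only by their summits.

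**Figure D1:**
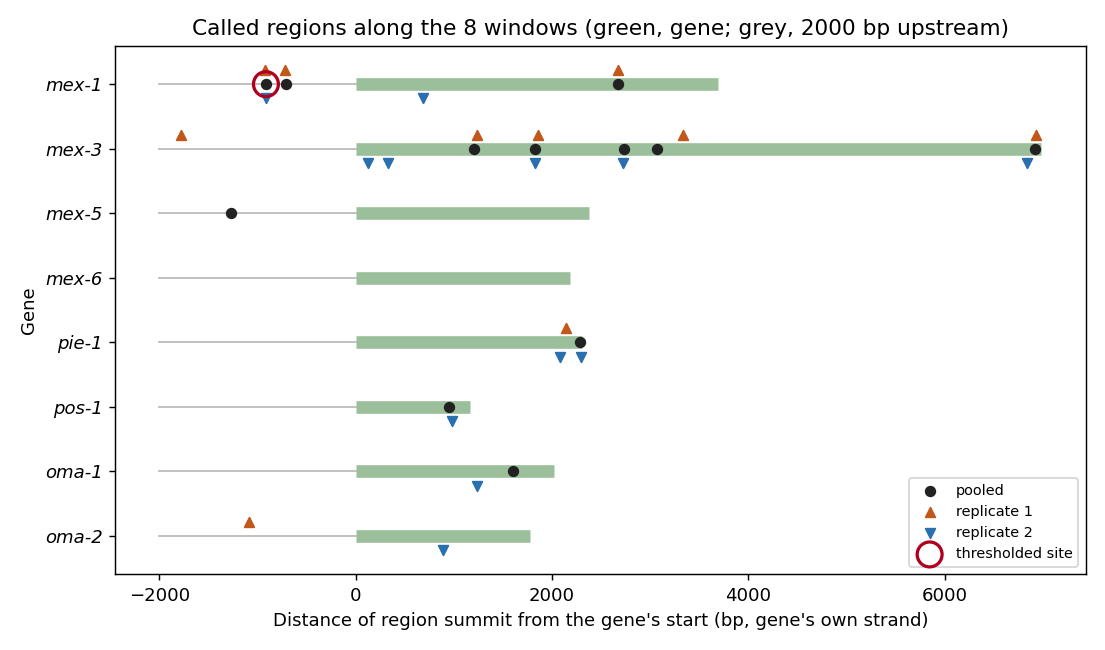
Summits of all regions in the windows of the 8 genes, by distance from each gene's start in bp on its own strand; circles are pooled regions, triangles pointing up replicate 1 and pointing down replicate 2, and the ring marks the single site. The ring lies 914 bp upstream of mex-1 where both replicates have a summit, summits of the 2 replicates within 100 bp of each other occur otherwise at mex-3 and pie-1, and mex-6 has none.

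Of the 7 genes without a site, pie-1 had the highest region, far below the threshold. PIE-1 blocks RNA polymerase II transcription in the germline blastomeres and so keeps them from adopting somatic fates. The lowest signal of any site was 82.1, and the highest region of pie-1 had a signal of 45.69, rank 4006, while that of mex-1 stood at 364.3. No member lay close to the threshold on either side. The pie-1 region ran from 12428947 to 12429402 on chromosome III, with its summit at 12429175, 2282 bp past the gene's first start. It lay in the 3' UTR of pie-1 and also in the 3' UTR of snr-6, an Sm protein gene of the splicing machinery that runs the opposite way, because the ends of these genes overlap, and the start of snr-6 lay 454 bp away. The summit also fell in the window of Y49E10.16. Replicate 1 had an overlapping region with a signal of 16.61, ranked 12317, 139 bp to the left of the pooled summit. Replicate 2 had overlapping regions ranked 3834 and 5598, with summits at 12428975 and 12429192. The replicate 1 summit lay 61 bp from the replicate 2 summit ranked 3834, so the replicates had nearby summits, both to the left of the pooled one, at ranks far apart.

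POS-1, which represses translation of glp-1 mRNA, the message of a Notch receptor, in posterior cells, had 1 weak region at its gene. Its summit lay at 8415039 on chromosome V, in the 3' UTR, 953 bp past the start. The window of the neighbour vha-18, which runs the opposite way, held the same summit. The pooled signal was 25.58, rank 16569. Replicate 2 had a region there with a signal of 21.62, ranked 6742, with its summit 30 bp to the right, and replicate 1 had none. The pos-1 region was thus a call of 1 replicate.

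The gene mex-3 had more regions than any other member and no site. MEX-3 keeps pal-1 mRNA, which encodes a Caudal homologue, from being translated in anterior cells. The gene is the longest of the group, with 6986 bp and a window of 8.99 kb, and it held 5 pooled regions, 5 of replicate 1 and 5 of replicate 2. The highest pooled region had a signal of 36.37, rank 7187, and its summit at 134210 in the 3' UTR, 127 bp from the start of the next gene, F53G12.4. Replicate 1 placed it 3 bp away at rank 6656, and replicate 2 placed it 81 bp away at rank 10775. A region in a coding exon with its summit at 129111, rank 8986, was also found in both, at ranks 10404 and 7706. The remaining 3 lay in introns at ranks 10258, 16739 and 21660. The intron region ranked 10258 had a summit within 100 bp in replicate 1 alone (rank 5396), that ranked 16739 in replicate 2 alone (rank 12778), and that ranked 21660, among the weakest of the pooled list, in neither. The last was overlapped by a replicate 1 region in the same gene, with its summit 262 bp to the right. That replicate 1 region had its summit at 130618, a signal of 17.3 and rank 11141. The replicate 2 region ranked 12778 also overlapped the pooled region ranked 21660, with its summit 352 bp to the left. Near the first start of mex-3, replicate 2 alone had regions, 124 and 325 bp past it and ranked 5556 and 16679. Replicate 1 alone had one 1779 bp upstream, ranked 9308. Repeated weak calls within 1 gene therefore came without a site, and none of them lay in the upstream 2000 bp in the pooled list.

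The paralogous pairs were compared next, because the members of each pair overlap in function. MEX-5 and MEX-6 shared 73.9% of 456 aligned residues, and the longest stretch of coding DNA that their genes share was 36 bp. OMA-1 and OMA-2 shared 65.3% of 392 aligned residues, with a longest shared coding stretch of 14 bp. How reads that match several places were treated is not stated, so a split of reads within the MEX-5 and MEX-6 genes was not tested.

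At mex-5, the 1 pooled region had a signal of 24.1 and rank 18621, with its summit at 13352450 on chromosome IV, 1273 bp upstream. That summit lay in an intron of rec-8, the gene of the meiotic cohesin subunit, 423 bp from the start of rec-8. The 201 bases around the summit also overlapped annotated exons. No region of replicate 1 or of replicate 2 overlapped the pooled region, and neither replicate had a summit in the mex-5 window. At mex-6, on chromosome II from 9524174 to 9526359, none of the lists had a summit, and the neighbour AH6.17 lies within its upstream window. The mex-5 and mex-6 windows, of 4.38 and 4.19 kb, thus held 1 and 0 pooled regions. The median over coding genes was 1, and 44.2% of coding genes had none.

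At oma-1, the 1 pooled region had a signal of 25.48 and rank 16707. Its summit was at 8890579 on chromosome IV, in the 3' UTR, 1603 bp past the start of oma-1 and 883 bp from that of the next gene, spr-2. Replicate 2 had an overlapping region with a signal of 15.16, ranked 16235, whose summit lay 362 bp to the left, and replicate 1 had none. At oma-2, on chromosome V from 8029439 to 8031214, the pooled list had no region. Replicate 1 had one 1085 bp upstream, ranked 7966, inside a coding exon of the neighbour F43H9.4, and replicate 2 had one in a coding exon of oma-2, ranked 20819. These oma-2 regions lay far apart, and each was called in 1 replicate.

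**Figure D2:**
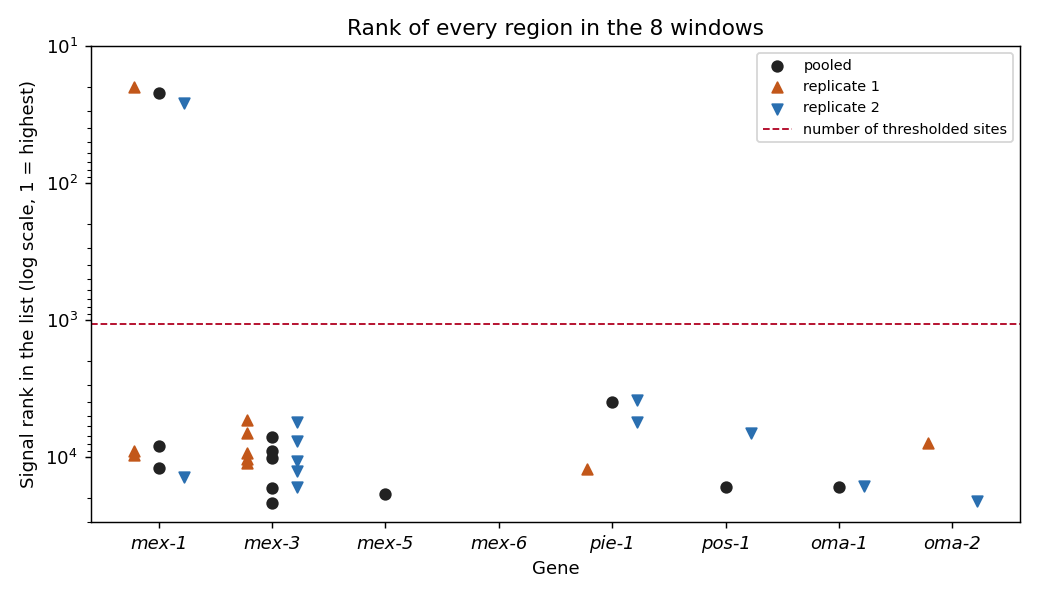
Signal rank of every region in the 8 windows on a log scale with the highest at the top, in the pooled list (circles), replicate 1 (triangles up) and replicate 2 (triangles down); the dashed line marks the 1065 sites. Only the mex-1 region lies above the line, at ranks 22, 20 and 26 in the 3 lists, and the next highest region, of pie-1 in replicate 2, ranks 3834.

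Counted together, 1 of the 8 genes had a site (12.5%), against 5.82% of the 19985 protein-coding genes with the same window. A pooled region was found at 6 of the 8 (75%), against 55.8% of coding genes. A pooled region that both replicates overlapped was found at mex-1, mex-3 and pie-1, 3 of the 8 (37.5%), against 32.9% of coding genes. In replicate 1, 4 of the 8 had a region (50%), against 54.2%, and in replicate 2, 6 of the 8 (75%), against 57.4%. In each list the count thus lay within 2 genes of the background share. Of all coding genes, 26 (0.13%) had a higher region in their window than mex-1, 3502 (17.5%) than pie-1, 5491 (27.5%) than mex-3, 9479 (47.4%) than pos-1, 9528 (47.7%) than oma-1 and 10159 (50.8%) than mex-5. A further 44.2% of coding genes had no pooled region, as mex-6 and oma-2 did.

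**Figure D3:**
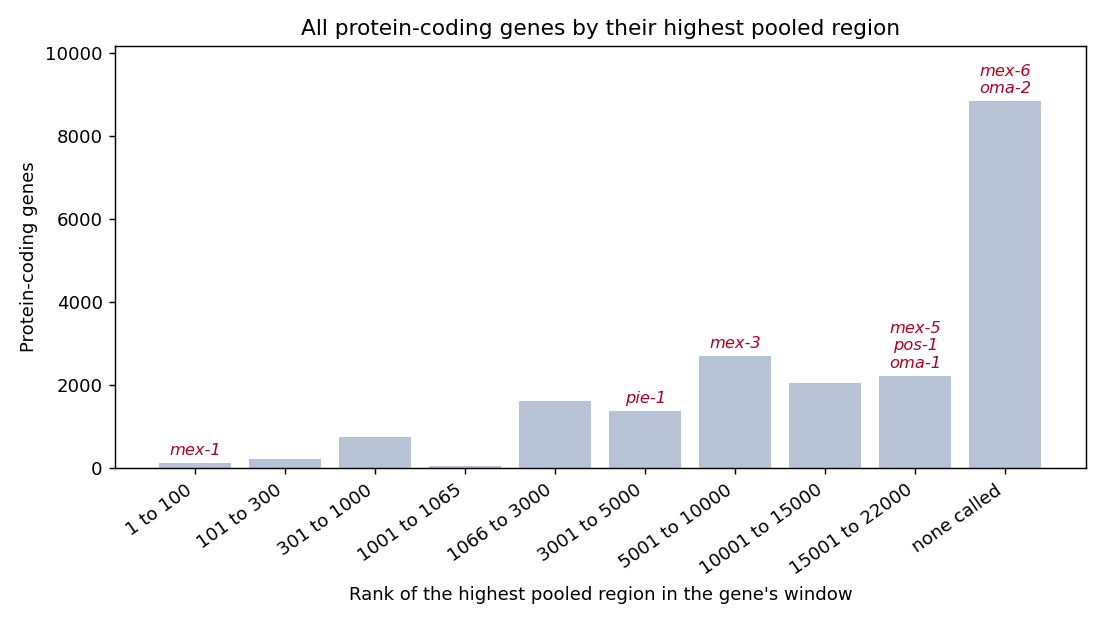
Number of protein-coding genes by the rank of the highest pooled region in their window, with the 8 genes written above the bar that holds them. The gene mex-1 stands in the bar of ranks up to 100 with 129 genes, while mex-6 and oma-2 stand in the tallest bar, 8837 genes with no pooled region.

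Window length bears on such counts, since a longer window catches more summits. The 8 windows covered 38.5 kb in all, with a median of 4.24 kb, against a median of 4.03 kb for coding genes. They held 12 pooled summits, or 0.312 per kb, against 0.228 per kb over all coding windows, and 0.237 per kb without mex-3. Of the 12 summits, 3 lay upstream of the gene and 9 within it. This split was not computed over all coding windows. Any coding gene held the summit of 31.2% of sites and of 61.3% of the other pooled regions. The nearest transcript start was the member's own for 6 of the 12. For the 3 upstream summits it was that of W03C9.5 or rec-8. Both replicates overlapped 6 of the 12, against 48.5% of all pooled regions, and 1, the mex-5 region, was overlapped by neither. Among the 6, the mex-1 region ranked 8335 was overlapped in replicate 2 by the region of the neighbouring site, with its summit 201 bp away. Another, the mex-3 region ranked 21660, was overlapped by regions with summits 262 and 352 bp away. With the stricter demand of a summit within 100 bp in each replicate, 3 of the 12 remained, the mex-1 site and a pair at mex-3. This was 25% of the 12, against 28.3% of all pooled regions, and 95.1% of sites met it.

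The DNA at the summits was searched on both strands for TGACCA, the word bound by mammalian BCL11A, and for GAGAGA, a repeat word added after the lists had been seen. In windows of 201 bases, TGACCA occurred at 7.14% of sites and at 6.86% of the other pooled regions. The mex-1 site held no copy. Of the 12 regions, 1 at mex-3 and the 1 at oma-1 held a copy, 88 and 72 bases to the left of their summits. GAGAGA occurred at 44.9% of sites and at 19.6% of the other pooled regions. The mex-1 site held none, whereas 3 of the 5 mex-3 regions and the pos-1 region did. The mex-1 site was thus among the sites that held neither word. Over 201 bases, regions that are not sites had a median G and C content of 41.3%, and sites one of 47.8%. Those with summits in a 3' UTR lay below 41.3%, at pie-1 (31.8%), pos-1 (37.3%), oma-1 (37.8%) and mex-3 (rank 7187, 37.8%). So did regions outside 3' UTRs, namely the weaker pooled regions of mex-1 (30.8% and 35.3%) and the mex-5 region (38.3%). The mex-1 site and the other mex-3 regions lay above it. Low G and C was therefore not particular to the 3' UTR regions.

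Genes that act with the 8, and other genes with CCCH zinc fingers, were counted by the same window. They came from 5 lists of 49 genes chosen with earlier results of these data known. In all, 5 of the 49 (10.2%) had a site and 38 (77.6%) a pooled region, over a median window of 4.79 kb. Over all coding genes these shares were 5.82% and 55.8%, and the median window was 4.03 kb, so the related genes had longer windows, and the part of window length in their shares was not tested. Of 8 PAR polarity genes, which place the RNA-binding proteins along the axis of the zygote, only par-1 had a site. PAR-1 is the posterior kinase that acts on MEX-5. Its site lay in an intron (V, 14136082 to 14136537, signal 140.2, rank 307), ranked 145 in replicate 1 and 947 in replicate 2. The window of par-1 was 35.3 kb long with 17 pooled regions, and the start nearest to the site was that of AH10.4, at 1556 bp. Of the 13 regulators and partners, 2 had a site. One was lin-41, a TRIM-NHL gene of oocyte development, 1465 bp upstream of its start (rank 566, with 979 and 352 in replicates 1 and 2). The other was taf-4, whose product OMA-1 and OMA-2 hold in the cytoplasm, 324 bp upstream of its start (rank 706, with 1508 and 379). In replicate 1 the taf-4 site ranked below the 1065 highest regions.

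Of 9 maternal mRNAs and early fate genes, skn-1 had a site. SKN-1 is the transcription factor that specifies the endomesoderm of the EMS blastomere. The site lay in an intron (IV, 5657056 to 5657511, signal 97.98, rank 727), at ranks 999 and 555 in replicates 1 and 2, and its nearest transcript start was that of T19E7.26, at 34 bp. A pooled region was found at 5 of these 9 genes (55.6%), against 55.8% of coding genes. The share was higher in the other lists, whose median windows ran from 2.95 to 8.39 kb. It was 87.5% for the PAR polarity genes and 84.6% for the regulators and partners. For the germ granule genes it was 84.6%, and for the other CCCH genes 66.7%. Of 6 other CCCH genes, ccch-1 had a site, in an intron (V, 11532023 to 11532478, signal 84.52, rank 999), which ranked 1205 in replicate 1 and 922 in replicate 2 and lay 1 bp from a start of F38B7.15. Of 13 germ granule genes 0 had a site, and the highest region belonged to cgh-1, a DEAD-box helicase gene, at rank 1362 (887 and 4006 in replicates 1 and 2). All of these regions ranked well below the site of mex-1.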

How the data were processed

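The deposited files are peak lists of 1 group with 2 biological replicates. Per the file lists that go with the labels, the authors aligned reads to ce11 and ce10, called regions permissively per replicate and on pooled reads against a control, and thresholded them by the irreproducible discovery rate. The signal that the authors deposited per region has no stated scale, and no source used here names the peak caller, aligner, versions or threshold. The depth of the libraries is unknown.

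Values come from the ce11 lists. All regions fell within the chromosome lengths of the RefSeq WBcel235 genome, and genes came from Ensembl release 115 for that build. The ce10 lists gave totals alone, and no position was converted. A replicate matched a pooled region when they overlapped by 1 bp or more. Positions are 1-based. Proteins were translated from the longest annotated coding sequence and aligned globally with BLOSUM62. The members and lists were chosen with earlier results of these data known. All 8 members are named with every region, their neighbours by nearest start, and related genes where they had a site or, in a list without one, the highest region; par-2 and mbk-2 were added after their values were seen. GAGAGA was likewise added later. Alternatives changed the window, the overlap, the threshold and the replicate used. The code was tested on simulated data with planted regions. Python 3.11.15, numpy 2.4.6, pandas 2.3.3, Biopython 1.88 and matplotlib 3.10.9 were used.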

Additional observations from a re-analysis of the deposited data

How the results depend on the processing

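The single site, at mex-1, was also counted with 1000 bp upstream, with any overlap of the window, among the 532 highest sites, and with the 1065 highest regions of either replicate alone. With the gene body only, 0 of the 8 genes had a site, the share of coding genes with one was 1.42%, 3 related genes had one, and the highest rank at mex-1 was 11993, because its site lies upstream. Among the 532 highest sites, 3.03% of coding genes and 1 related gene had one. With 1 replicate left out, the rank of the mex-1 site was 20 to 26, the genes of the 8 with any region numbered 4 to 6, and the related genes with a site 4 to 5. These replicate values for the mex-1 rank and the pooled count were added after seeing the data. For pie-1, the nearest replicate 2 summit gave rank 5598. The mex-5 region has no value with 1000 bp upstream or the gene body only, since it lies beyond both. No paired analysis was possible because there is 1 group. Of 52 comparisons with an alternative, 43 gave the same value or a similar count, and 9 moved. The allowance for counts was wide, whereas a rank had to be equal. A fall from 6 to 4 genes with a pooled region passed as similar, as did one from 3 to 2 genes with a region in each replicate.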

Other observations

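On ce10, taken alone, the authors' threshold kept 1362 regions of the same number of pooled regions, down to a signal of 73.5, against 1065 on ce11, down to 82.1. None of the 8 genes had a ce11 region between these signals. Of the related genes on ce11, named here after their values were seen, par-2, whose product marks the posterior cortex of the zygote, had its highest region at rank 1200 with a signal of 77.59, in the 5' UTR of rab-18 and 33 bp from the start of rab-18, against 659 bp from that of par-2, and mbk-2, the kinase that marks OMA-1 for degradation, had one at rank 1225 with a signal of 76.6 and 22 pooled regions in its window. The highest region of the germ granule gene cgh-1, named above, ranked 1362 with a signal of 73.54, right at the ce10 limit. Whether any of these regions is a site on ce10 was not examined, since positions were not converted.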
